A study of Mus musculus with 9 samples.

Results

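The insulin-like growth factor (IGF) pathway was examined through 10 genes out of the 55450 in the deposited count files. They were taken by Ensembl identifier and covered the ligands *Igf1* and *Igf2*, the receptors *Igf1r*, *Igf2r* and *Insr*, the intracellular adaptor *Grb10*, the binding proteins *Igfbp2*, *Igfbp3* and *Igfbp5*, and *H19*, a non-coding RNA gene that neighbours *Igf2*. Of these, 4 (*Igf2*, *H19*, *Igf2r* and *Grb10*) are in the study's list of imprinted genes and 6 are not. The study asked how imprinted genes are expressed in the developing and the mature pituitary gland. Bulk RNA sequencing was done on the Rathke's pouch, the epithelial fold from which the anterior and intermediate lobes form, of 7 embryos at embryonic day 13.5 (e13.5), and on the pituitary of 2 adult mice at postnatal week 8 after removal of the posterior lobe. The strain of all animals was given as 129Sv/c57BL6J, and the embryos were Sox2Egfp/+, with a reporter at 1 allele of *Sox2*. The genotype of the adults was not given in the sources used here, so that an effect of this allele and one of age cannot be told apart. Both sexes were used, and the sex of each library is not given. The embryo libraries held 16738863 to 28537311 read pairs counted on genes (median 24687556), and the adult libraries held 36421545 and 31191117. All levels are in CPM, counts per 1000000 counted pairs, with the library sizes scaled by the TMM method of edgeR.

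IGF1 and IGF2 are secreted peptides that promote growth through the receptor tyrosine kinase IGF1R, and IGF2 also acts through an isoform of the insulin receptor. IGF2R binds IGF2 and carries it to the lysosome without signalling as a kinase, while the binding proteins hold the ligands outside the cell and set how much reaches a receptor. In the mouse, *Igf2* is expressed from the paternal allele and *H19* and *Igf2r* from the maternal allele, and *Grb10*, whose product restrains signalling from the insulin and IGF1 receptors, is maternally expressed in most tissues. The counts do not tell the 2 alleles apart. In the pituitary axis, growth hormone from the somatotrophs raises circulating IGF1, which feeds back on the gland.

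The tissue labels were checked against fixed marker lists. The 8 hormone cell markers summed to 152620 and 160148 CPM in the adults, led by *Prl* and *Gh*, and to 873 to 1921 CPM in the embryos, led by *Cga*, with *Lhb* at 0 in embryos 1, 4 and 6 and *Fshb* at 0 in embryo 1. The 8 pouch markers were all detected in all 9 libraries, with 662 to 1612 CPM in the embryos, against 632 and 549 CPM in the adults. In the test described below, 3 of these 8 were called higher in the embryo (11.3% of all genes). *Sox2* went the other way (log2 fold change, embryo over adult, −0.70, edgeR adjusted p = 0.0282), with every embryo below both adults. It did not pass without both embryos 1 and 4. The embryos carry a reporter at 1 allele of *Sox2* and the genotype of the adults was not given. An effect of this allele on the *Sox2* count and one of age cannot be told apart. Embryos 1 and 4 stood apart from the others in their blood content and in the share of read pairs counted on genes. The 8 erythroid markers, led by *Hbb-y* in the embryos and *Hbb-bs* in the adults, reached 171190 CPM in embryo 1 and 213896 CPM in embryo 4, while the remaining embryos had 6123 to 19078 CPM and the adults 763 and 1977 CPM, and *Hbb-bh1* was at 0 in both adults. The share of read pairs that fell on a gene was 59.7% in embryo 1 and 62.8% in embryo 4, lower than in the remaining 5 (73.9% to 80.0%) and in the adult libraries (84.0% and 83.7%). In bulk RNA, fewer cells of a type and less RNA per cell cannot be told apart.

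All 10 genes passed the filter on low counts, a mean of at least 5 over the 9 libraries, which 19371 genes passed. Genes were called with edgeR's quasi-likelihood test at a Benjamini-Hochberg adjusted p below 0.05 over all these genes together with a fold change above 4, the thresholds of the study. Called higher in the embryo were 4 of the 10, *H19*, *Igf2*, *Igfbp2* and *Grb10*, beside 11.3% of all genes tested. *Igfbp5* was the 1 gene of the 10 called higher in the adult, beside 14.6% of all genes. Without the threshold on fold change, the same 4 genes were higher in the embryo, beside 24.0% of all genes, and 2 genes, *Igfbp5* and *Insr*, were higher in the adult, beside 27.4%, although *Insr* did not pass after a correction for transcript length and GC content. These 6 were also the genes whose groups did not overlap. Every embryo lay above both adults for 4 of the 10 genes, beside 26.2% of all genes, and every embryo lay below both adults for 2, beside 32.9%. *Igf1*, *Igf1r*, *Igf2r* and *Igfbp3* did not pass the test, and their groups overlapped.

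**Figure D1:**
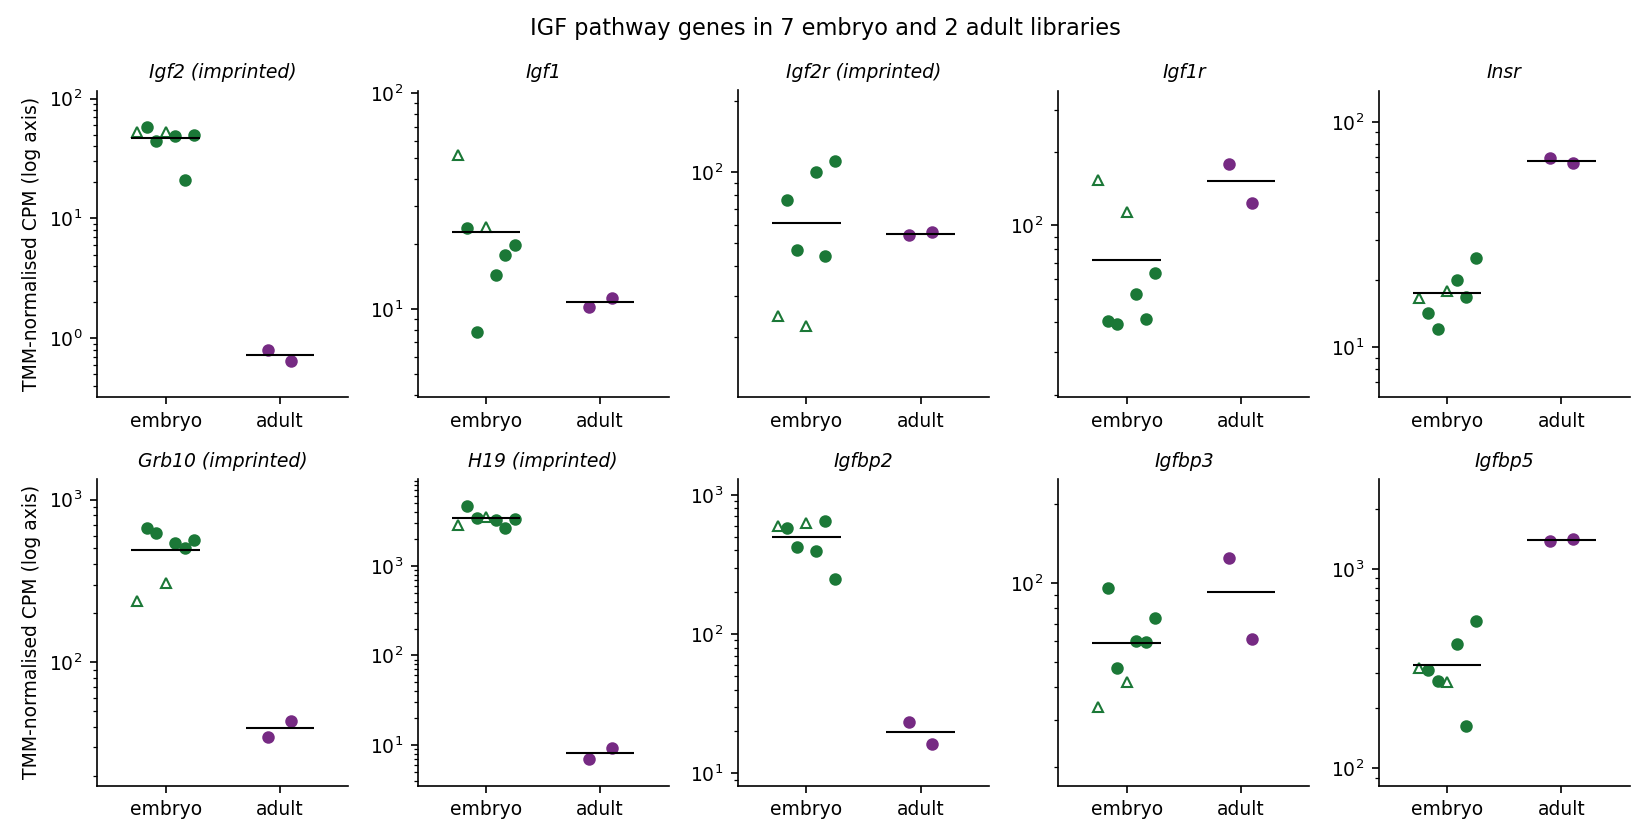
Level of each of the 10 IGF pathway genes in CPM (log axes that differ between panels) in each of the 7 embryo libraries (green) and 2 adult libraries (purple), with the group mean as a line and embryos 1 and 4 as open triangles. The groups are separate for *Igf2*, *H19*, *Grb10* and *Igfbp2*, which are higher in the embryo, and for *Insr* and *Igfbp5*, which are higher in the adult.

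Set side by side, the imprinted genes and the others divided as follows. Of the 4 imprinted genes, 3 were called higher in the embryo, beside 11.3% of all genes. None was higher in the adult on adjusted p, beside 27.4% of all genes, and *Igf2r* was the 1 that did not pass. The median log2 fold change (embryo over adult) of these 4 was 4.83. Of the 6 genes outside the imprinted list, 1 (*Igfbp2*) was called higher in the embryo, beside the same 11.3%. On adjusted p, 2 (*Insr* and *Igfbp5*) were higher in the adult, beside 27.4% of all genes, and 3 did not pass. The median log2 fold change of these 6 was −0.86. The median over all 10 was 0.61, beside −0.04 over all genes tested, and 2.15 beside 0.05 after the correction for length and GC content. With this correction, all 4 imprinted genes were higher in the embryo on adjusted p, beside 4826 of all 19371 genes. Outside the imprinted list, *Igf1* and *Igfbp2* were then called higher in the embryo, beside 1687 of all 19371 genes. *Igfbp3* and *Igfbp5* were higher in the adult on adjusted p, beside 4574 of all 19371 genes, and *Igf1r* and *Insr* did not pass. With 4 and 6 genes, these medians describe the lists only.

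*Igf2* (ENSMUSG00000048583.16) lies on the minus strand of chromosome 7 at 142650766 to 142666816 in GRCm38, with 9 annotated transcripts. Its exons are the ones most affected by how read pairs were counted. A second gene of the annotation, *Gm49394*, named here after its values were seen, lies at 142650769 to 142669942 on the same strand and shares 3596 of the 5723 bp of merged *Igf2* exons, or 62.8%. STAR gives a read pair that falls on 2 genes to neither of them. The shared part holds the entire 540 bp of coding sequence of the transcripts *Igf2-201* to *Igf2-204*. The counts of *Igf2* therefore come from 2127 bp, most of it in alternative 5′ leader exons, the largest of them 1126 and 374 bp long, with 414 bp in a later block of exon sequence. Which of these exons supplied the counts cannot be read from the files. *Gm49394* itself had no counted pairs except 3 in embryo 5. In all, 565116 to 957670 read pairs in each embryo and 616878 and 493791 in the adults were left out as ambiguous over all genes, and how many of them lay on *Igf2* was not tested. Of the other 9 genes, only *H19* shared exon sequence with a gene on its own strand.

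**Figure D2:**
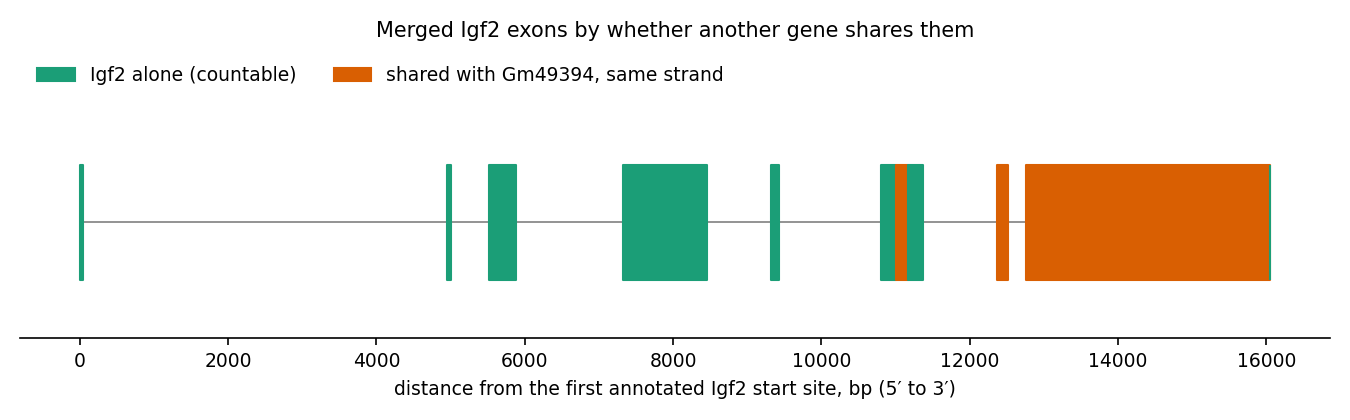
Merged *Igf2* exons along the gene, as distance in bp from its first annotated start site in the direction of transcription, with parts that belong to *Igf2* alone in green and parts shared with *Gm49394* on the same strand in orange. The shared 3596 bp lie toward the 3′ end, and most of the countable 2127 bp lie in the leader exons.

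The promoter windows of the 3 largest leader exons are shown because most of the countable sequence of *Igf2* lies in these exons. They run from 250 bases before to 50 bases after a RefSeq start site in GRCm38.p6 and are all on the minus strand, at chr7:142661222-142661521, chr7:142658755-142659054 and chr7:142657447-142657746. Their start sites lie in exons with 374, 1126 and 109 countable bp. The window at 142658755 lies entirely inside its 1126 bp exon (142658364 to 142659489), downstream of the annotated start of that exon. The capitals mark GGGCGG or its reverse complement CCGCCC, which occurs in 35.7% of 32851 promoter windows of this length.
Igf2 window at 142661222: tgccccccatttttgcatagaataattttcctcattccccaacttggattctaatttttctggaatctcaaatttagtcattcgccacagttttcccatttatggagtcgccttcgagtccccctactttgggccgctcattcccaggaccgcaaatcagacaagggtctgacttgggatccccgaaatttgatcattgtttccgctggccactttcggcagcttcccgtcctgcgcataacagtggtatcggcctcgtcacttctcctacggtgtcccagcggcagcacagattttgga
Igf2 window at 142658755: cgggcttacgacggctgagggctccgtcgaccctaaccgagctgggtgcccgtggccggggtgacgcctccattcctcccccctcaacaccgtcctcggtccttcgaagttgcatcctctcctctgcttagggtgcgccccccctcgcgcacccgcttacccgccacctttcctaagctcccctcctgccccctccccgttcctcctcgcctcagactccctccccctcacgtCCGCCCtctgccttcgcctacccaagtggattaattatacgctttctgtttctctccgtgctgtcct
Igf2 window at 142657447: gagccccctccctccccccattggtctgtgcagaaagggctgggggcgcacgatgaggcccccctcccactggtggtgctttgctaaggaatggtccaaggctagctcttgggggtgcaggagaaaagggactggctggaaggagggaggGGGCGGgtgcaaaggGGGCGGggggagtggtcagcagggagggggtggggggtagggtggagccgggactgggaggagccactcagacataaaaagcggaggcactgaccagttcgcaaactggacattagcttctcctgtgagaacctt
These windows hold 14, 24 and 7 CpG dinucleotides, beside a median of 7 over all windows.

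In the embryos, *Igf2* had 419 to 1726 counted read pairs, which corresponded to 20.7 CPM at the lowest, a median of 50.0 and 58.3 CPM at the highest. In the adults it had 33 and 23 read pairs, or 0.800 and 0.647 CPM. The lowest embryo, number 6, was still far above both adults, and the other 6 embryos lay close together, from 44.2 CPM upward. The log2 fold change was 6.01 (standard error 0.50, edgeR adjusted p = 9.11e-07), a 64.2-fold difference measured on the countable exons alone. It ran from 5.79 to 6.41 over the 18 alternatives to this fit.

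*Igf1* (ENSMUSG00000020053.18, chromosome 10, 87858265 to 87937042) encodes the ligand that mediates much of the growth-promoting action of growth hormone after birth. Its level was 7.80 CPM in the lowest embryo, 19.9 CPM in the median embryo and 51.4 CPM in the highest, and 10.2 and 11.3 CPM in the adults. Embryo 3 lay below both adults and the other 6 above them, so the groups overlapped. The log2 fold change of 1.08 (standard error 0.53, edgeR adjusted p = 0.102) did not pass the test. This result depended on the libraries and on the processing. Without embryo 3 the log2 fold change was 1.27 (edgeR adjusted p = 0.0328), and without both embryos 1 and 4 it was 0.66 (adjusted p = 0.165). It was 2.90 (adjusted p = 4.78e-04) after the correction for length and GC content, and *Igf1* was then called higher in the embryo.

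The receptors did not move as 1 group. *Insr* (ENSMUSG00000005534.10, chromosome 8, 3122061 to 3279617), the insulin receptor gene, had 12.02 CPM in the lowest embryo, 16.8 CPM in the median embryo and 24.997 CPM in the highest, against 69.1 and 65.8 CPM in the adults. All 7 embryos were far below both adults. Its log2 fold change of −1.95 (standard error 0.26, edgeR adjusted p = 4.52e-05) passed the test on adjusted p but lay just short of the 4-fold threshold, and it was −0.29 (adjusted p = 0.188) after the correction for length and GC content.

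*Igf1r* (ENSMUSG00000005533.10, chromosome 7, 67952827 to 68233668), the main signalling receptor of both ligands, had 39.2 CPM in the lowest embryo, a median of 52.1 CPM and 154 CPM in the highest, and 179.7 and 124 CPM in the adults. The overlap of the groups came from embryo 1, and embryo 4 followed it with 114 CPM, while the other 5 embryos lay between 39.2 and 63.6 CPM. The log2 fold change was −1.08 (standard error 0.45, edgeR adjusted p = 0.0593) over all libraries and −1.65 (adjusted p = 2.66e-04) without both embryos 1 and 4. It also passed the test without embryo 1 alone (−1.33, adjusted p = 0.00804) and without embryo 4 alone (−1.17, adjusted p = 0.0442). In other alternatives the difference was smaller or changed sign. Without adult 1 the log2 fold change was −0.81, in the same direction. After the correction for length and GC content it was 0.62 (adjusted p = 0.348), a change of sign.

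*Igf2r* (ENSMUSG00000023830.14, chromosome 17, 12682406 to 12769664), the receptor that clears IGF2, showed the opposite arrangement in these 2 libraries. Embryos 1 and 4 had the lowest levels, 24.5 and 22.2 CPM, and the other 5 embryos had 44.0 to 111 CPM, around a median over all 7 of 46.8 CPM. The adults had 54.1 and 55.8 CPM, inside the range of the embryos. A difference between the stages was not detected (log2 fold change 0.15, standard error 0.52, edgeR adjusted p = 0.828), and the 95% confidence interval ran from −0.96 to 1.25. It was 0.49 (adjusted p = 0.276) without both embryos 1 and 4. *Igf2r* was the 1 imprinted gene of the 10 without a change between the stages in this test, but it was 1.39 (adjusted p = 0.0282) after the correction for length and GC content. The part of blood content in these patterns was not tested.

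*Grb10* (ENSMUSG00000020176.17, chromosome 11, 11930508 to 12038683, minus strand) was among the genes called higher in the embryo. It had 239 CPM in the lowest embryo, a median of 544 CPM and 669 CPM in the highest, and 34.8 and 43.7 CPM in the adults. Embryos 1 and 4 were the 2 lowest embryos, with 239 and 308 CPM against 501 to 669 CPM in the other 5, and all 7 lay above both adults. The log2 fold change was 3.65 (standard error 0.46, edgeR adjusted p = 2.86e-05), a 12.5-fold difference, and 3.91 without both embryos 1 and 4. The more CpG-rich of its 2 promoter windows is shown beside that of *Igfbp2*, because these are the other 2 protein-coding genes of the 10 called higher in the embryo, and beside that of *Igfbp5*, the gene called higher in the adult. The capitals mark GGGCGG or CCGCCC as above, and overlapping matches run together.
Grb10, chr11:12037371-12037670, minus strand: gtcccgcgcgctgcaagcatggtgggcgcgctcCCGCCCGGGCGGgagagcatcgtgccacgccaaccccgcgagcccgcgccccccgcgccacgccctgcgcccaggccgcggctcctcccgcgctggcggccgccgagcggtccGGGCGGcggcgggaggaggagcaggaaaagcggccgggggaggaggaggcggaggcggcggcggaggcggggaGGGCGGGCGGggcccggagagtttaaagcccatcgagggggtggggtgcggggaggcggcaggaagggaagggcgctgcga
Igfbp2, chr1:72824230-72824529, plus strand: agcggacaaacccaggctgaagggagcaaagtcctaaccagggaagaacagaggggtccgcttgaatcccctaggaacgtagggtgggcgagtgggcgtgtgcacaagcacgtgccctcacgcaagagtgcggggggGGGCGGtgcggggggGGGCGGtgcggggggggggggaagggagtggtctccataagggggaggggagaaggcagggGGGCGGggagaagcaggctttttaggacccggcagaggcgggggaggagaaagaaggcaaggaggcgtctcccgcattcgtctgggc
Igfbp5, chr1:72874816-72875115, minus strand: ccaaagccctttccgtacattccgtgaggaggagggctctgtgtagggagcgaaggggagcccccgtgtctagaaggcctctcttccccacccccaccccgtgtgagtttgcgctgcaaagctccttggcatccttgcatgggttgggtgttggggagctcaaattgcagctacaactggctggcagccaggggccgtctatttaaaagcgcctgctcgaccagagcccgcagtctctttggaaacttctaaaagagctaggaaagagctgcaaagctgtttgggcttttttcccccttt
The *Grb10* window shown holds 45 CpG dinucleotides, more than 98.1% of all promoter windows, and 5 matches. The *Igfbp2* window shown holds 18 CpG dinucleotides and 3 matches, and the only *Igfbp5* window holds 10 and no match. The second windows of *Grb10* and *Igfbp2*, not shown, hold 9 and 14 CpG dinucleotides and no match. Over all 13 windows of the 8 genes with a RefSeq entry, 6 held GGGCGG on either strand and none held TATAAA, which 13.6% of all windows hold, or GGGGCCCC, which 1.08% hold. A match describes the letters only and is not a binding site. For *H19* and *Insr* no window was at hand.

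*H19* (ENSMUSG00000000031.16, chromosome 7, 142575529 to 142578143) had the largest difference of the 10 genes. In the embryos it ranged from 2678 to 4682 CPM with a median of 3343 CPM, and in the adults it was at 7.03 and 9.22 CPM. Embryo 2 was the highest, and the other 6, embryos 1 and 4 among them, lay between 2678 and 3542 CPM. The log2 fold change of 8.71 (standard error 0.53, edgeR adjusted p = 7.23e-08), a 418-fold difference, was number 32 of the 19371 genes in the embryo direction. Within an exon of *H19* lies the 84 bp hairpin of *Mir675* (142577064 to 142577147), the only part of *H19* that another gene on the same strand shares, equal to 3.41% of its exon length. *Mir675* had no counted pairs in any library, but pairs on it fall on *H19* too and are not counted, and poly(A)-selected libraries do not measure mature miRNAs. Its mature arms are given because they are the known processed product of this transcript, with the seed (bases 2 to 8) in capitals.
miR-675-5p: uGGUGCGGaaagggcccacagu
miR-675-3p: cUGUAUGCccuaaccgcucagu
Per kb of countable exon, *H19* exceeded *Igf2* by 48.1-fold in embryo 1 to 115.5-fold in embryo 6, and by 7.87-fold and 12.8-fold in the adults. These ratios set *H19* against the countable exons of *Igf2*, not against its main coding exons.

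The binding proteins moved in opposite directions. *Igfbp2* (ENSMUSG00000039323.18, chromosome 1, 72824503 to 72852474) had 248 CPM in the lowest embryo, a median of 582 CPM and 651 CPM in the highest, and 23.5 and 16.3 CPM in the adults. All 7 embryos were far above both adults, the lowest being embryo 7. The log2 fold change was 4.66 (standard error 0.48, edgeR adjusted p = 5.02e-06), a 25.2-fold difference and the largest among the 6 genes that are not imprinted. *Igfbp5* (ENSMUSG00000026185.8), which lies beside it at 72857932 to 72874884 on the opposite strand, had 164 CPM in the lowest embryo, a median of 312 CPM and 548 CPM in the highest, and 1376 and 1413 CPM in the adults. All 7 embryos were below both adults. Its log2 fold change of −2.08 (standard error 0.33, edgeR adjusted p = 1.77e-04) was close to the 4-fold threshold. It fell below that threshold after the correction for length and GC content (−1.24), without both embryos 1 and 4 (−1.99), and without embryo 3 (−1.98), embryo 4 (−1.98) or embryo 6 (−1.91), each time with an adjusted p still under 0.05. Thus 2 neighbouring genes of 1 family had opposite differences between the stages.

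*Igfbp3* (ENSMUSG00000020427.11, chromosome 11, 7206086 to 7213923), the main carrier of IGF1 in blood plasma, did not pass the test. It had 33.8 CPM in the lowest embryo, a median of 59.7 CPM and 96.03 CPM in the highest, and the adults differed from each other with 124 and 61.0 CPM. Its log2 fold change of −0.65 (standard error 0.36, edgeR adjusted p = 0.14) was −0.07 without adult 1 and −1.09 without adult 2. Its size thus depended on which adult was kept. After the correction for length and GC content it was −1.11 (edgeR adjusted p = 0.00934) and passed the test on adjusted p.

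Across all genes, the log2 fold change fell with transcript length, and the 10 genes differ widely in length. The longest transcripts of *Igf1*, *Igf1r*, *Igf2r* and *Insr* measure 7052, 11409, 8887 and 9355 bp, and all 4 fall in the longest 10% of genes, whose median log2 fold change was −1.39. *Igf2r*, at 0.15, and *Igf1*, at 1.08, lay above this median, *Igf1r* at −1.08 lay near it and *Insr* at −1.95 below it. *Igfbp5* and *Grb10* belong to a length class with a median of −0.85, *Igf2* to one with −0.51, *H19* and *Igfbp3* to one with 0.31, and *Igfbp2* to one with 0.98. After a correction of every library for length and GC content, the 4 genes called higher in the embryo kept their calls, with log2 fold changes of 8.18 for *H19*, 6.41 for *Igf2*, 4.36 for *Grb10* and 3.75 for *Igfbp2*. *Igf1* joined them at 2.90 (edgeR adjusted p = 4.78e-04). With this correction, 1687 of all 19371 genes were called higher in the embryo. *Insr* no longer passed, and *Igfbp5* kept an adjusted p of 0.00177 below the 4-fold threshold. *Igf1r* changed sign, while *Igf2r* and, at −1.11 (adjusted p = 0.00934), *Igfbp3* passed the test on adjusted p alone. A difference between the stages that varies with length and an effect of the libraries cannot be told apart here. The sizes of most of the 10 differences, the passing of *Igf1*, *Igf2r*, *Insr* and *Igfbp3*, the call of *Igfbp5* and the direction of *Igf1r* thus depended on this correction.

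**Figure D3:**
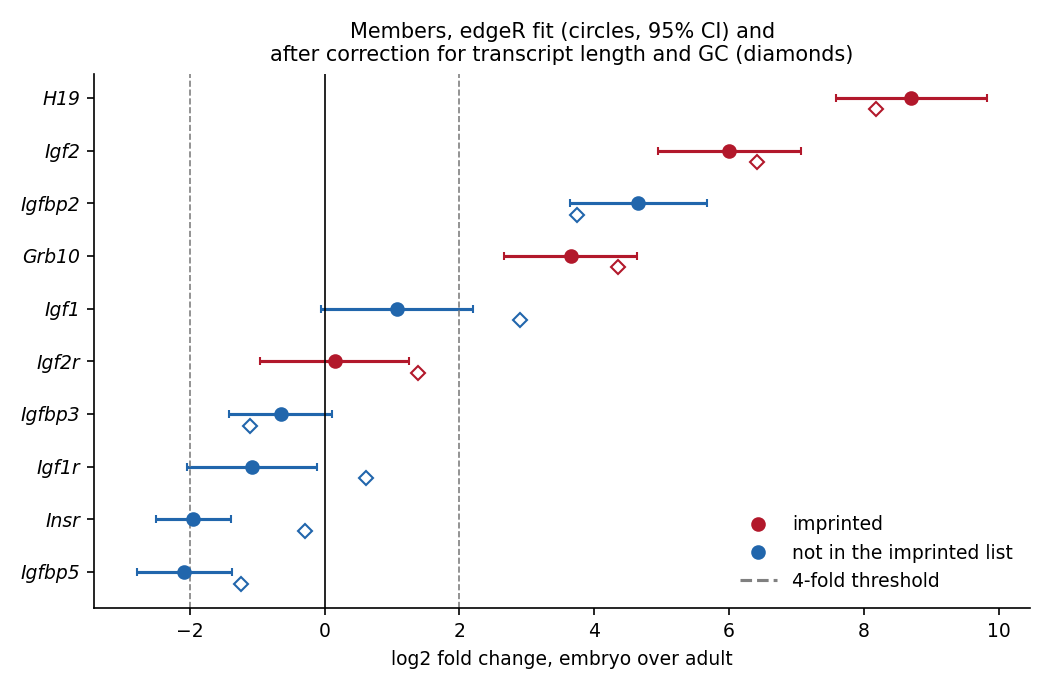
Log2 fold change (embryo over adult) of each gene from the edgeR fit with its 95% confidence interval (circles) and after a per-library correction for length and GC content (diamonds), with imprinted genes in red, the others in blue and the 4-fold threshold as dashed lines. *H19*, *Igf2*, *Igfbp2* and *Grb10* lie beyond the threshold both ways, and *Igf1r* changes sign from −1.08 to 0.62.

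**Figure D4:**
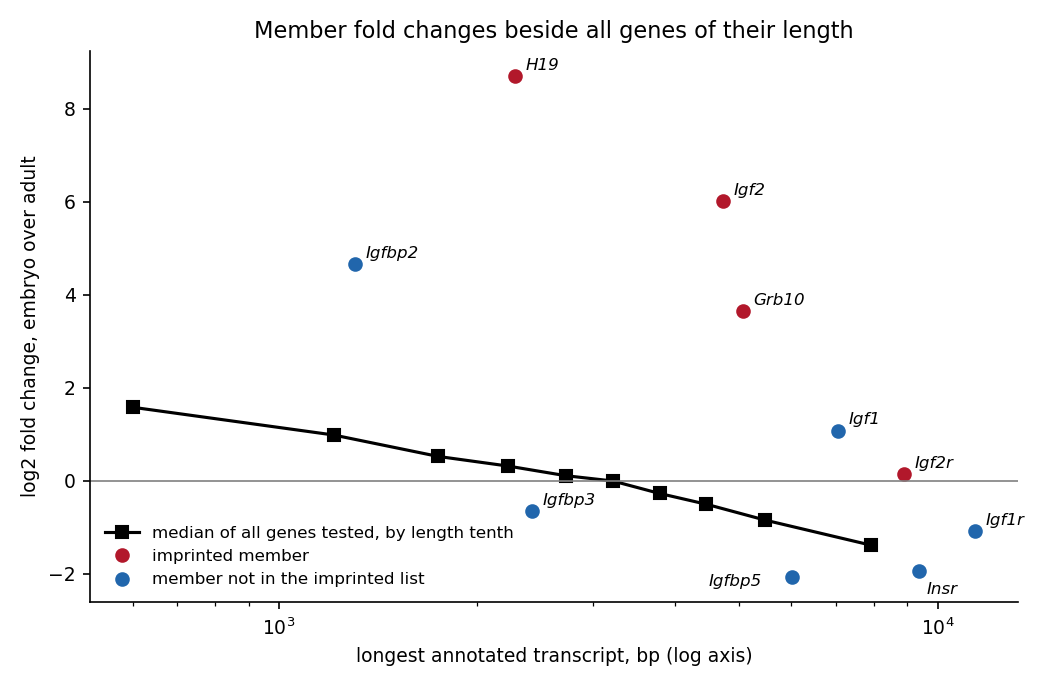
Log2 fold change (embryo over adult) of each of the 10 genes against the length of its longest annotated transcript in bp (log axis), with the median of all genes tested in each of 10 length classes as black squares. The medians fall from 1.58 to −1.39, and *Igf1*, *Igf1r*, *Igf2r* and *Insr* lie at the long end.

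Levels of different genes were compared per kb of exon that can be counted for each. In the embryo the order by mean CPM per kb was *H19* (1430 ± 272, SD, n = 7), *Igfbp2* (272 ± 81.4), *Igfbp5* (54.9 ± 20.4), *Grb10* (54.2 ± 17.6), *Igf2* (22.03 ± 5.78, on its countable exons), *Igfbp3* (18.8 ± 6.69), *Igf2r* (6.53 ± 3.83), *Igf1r* (4.29 ± 2.65), *Igf1* (2.29 ± 1.398) and *Insr* (1.27 ± 0.303). The means of the neighbours *Igfbp5* and *Grb10*, *Igf2* and *Igfbp3*, *Igf2r* and *Igf1r*, *Igf1r* and *Igf1*, and *Igf1* and *Insr* lay closer together than the larger of their SDs. Within libraries, *Igf1r* lay above *Igf1* in all 7 embryos, though barely in embryo 2 (2.40 and 2.39). *Insr* lay above *Igf1* only in embryo 3 (0.875 and 0.787). For the other pairs named, the order differed between embryos and is not resolved. In the adult the order began with *Igfbp5* (229 and 235 CPM per kb in the 2 adults), *Igfbp3* (39.7 and 19.5), *Igfbp2* (12.7 and 8.83) and *Igf1r* (10.7 and 7.40) and ended with *H19* (2.96 and 3.88), *Igf1* (1.03 and 1.14) and *Igf2* (0.376 and 0.304). *H19* was thus the highest of the 10 in the embryo but not in the adult, and *Igf2*, on its countable exons, was the lowest in both adults.

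The composition of each functional group was then taken per library as the share of each gene in the summed CPM per kb. Among the ligands, *Igf2* made up 82.7% to 96.4% of the sum with *Igf1* in the embryos (median 92.0%) and 26.7% and 21.1% in the adults. The ligand sum was 11.55 to 30.1 CPM per kb in the embryos, against 1.41 and 1.44 in the adults. *Igf2* thus held the larger part in all 7 embryos and *Igf1* in both adults. With all exon positions of *Igf2* as its length, in place of the countable ones, its mean share was 78.4% in the embryo and 10.5% in the adult. Because pairs on the shared exons were not counted, neither figure is the share of *Igf2* transcripts, and both rest on exons that each belong to only some of the transcripts.

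Among the receptors, *Insr* made up 8.85% to 14.5% in the embryos, against 23.3% and 26.3% in the adults. *Igf2r* was the largest of the 3 in 5 embryos, with up to 70.5%, and *Igf1r* the largest in embryos 1 and 4, with up to 70.5%, and in both adults, with 49.7% and 40.7%. Without both embryos 1 and 4, the *Igf1r* shares (20.3% to 29.3%) all lay below and the *Igf2r* shares (56.2% to 70.5%) all above those of both adults (27.0% and 33.0% for *Igf2r*). The difference in mean share (embryo minus adult) was then −21.2 percentage points for *Igf1r* and 35.2 for *Igf2r*, in place of −8.69 and 22.8 over all libraries. Leaving out 1 library at a time gave −14.4 to −4.19 for *Igf1r* and 19.8 to 28.2 for *Igf2r*. The receptor sum was 8.24 to 17.6 CPM per kb in the embryos, against 21.5 and 18.2 in the adults. Among the 6 binding proteins *Igfbp1* to *Igfbp6*, *Igfbp2* led in all 7 embryos with 41.5% to 74.8%, and *Igfbp4* made up 13.3% to 30.0%. *Igfbp5* led in both adults with 74.7% and 84.3%, against 5.80% to 28.2% in the embryos. The sum of the 6 was 324 to 581 CPM per kb in the embryos, against 307 and 279 in the adults, so that the makeup differed much more than the total. In an exact two-sided permutation test over all 9 libraries, 6 of the 10 shares compared (*Igf2*, *Insr*, *Igfbp1*, *Igfbp2*, *Igfbp4* and *Igfbp5*) gave p = 0.0556 (adjusted p = 0.0926 over the 10). This is the smallest p that the test as run, which doubles the one-sided p over 36 assignments, can give with 7 against 2 libraries.

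**Figure D5:**
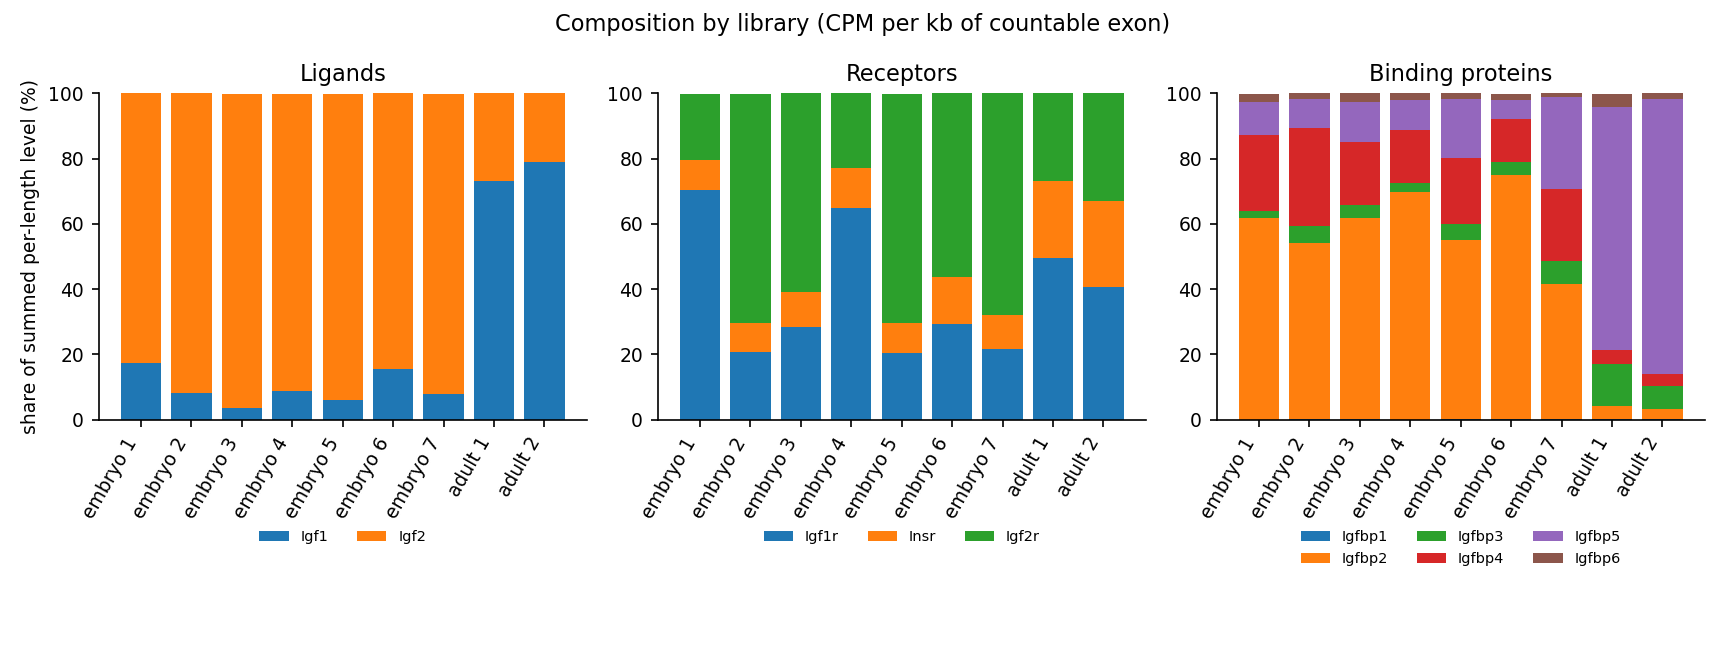
Share (%) of each gene in the summed CPM per kb of countable exon of the 2 ligands, the 3 receptors and the 6 binding proteins, as stacked bars for each of the 9 libraries. *Igf2* fills 82.7% to 96.4% of the ligand bar in the embryos, *Igf1r* takes the place of *Igf2r* in embryos 1 and 4, and *Igfbp5* takes the place of *Igfbp2* in the adults.

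Read pairs on the opposite strand were few for the 10 genes. Of the pairs counted on the strand of a member or opposite to it, 97.0% to 100% were on its own strand, with the lowest value for *Igf2* in embryo 6. Opposite to *Igf2* lies *Igf2os*, a non-coding gene on the plus strand, which had 10.1 to 18.4 CPM in the embryos, against 0.218 and 0.141 CPM in the adults. It was called higher in the embryo with a log2 fold change of 6.18 (edgeR adjusted p = 8.28e-07), close in size to that of *Igf2*. How many of its pairs came from *Igf2* transcripts read on the wrong strand was not tested. In the libraries as a whole, 4.38% to 5.17% of pairs lay opposite to genes. That figure can also include transcripts that truly come from the opposite strand, so it is not a rate of wrong-strand reading.

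The other genes of the pathway were taken from 8 fixed lists with 68 genes, of which 64 were tested. Of these, 11 were called higher in the embryo, beside 11.3% of all genes, and 8 higher in the adult, a share near the 14.6% of all genes. With the DESeq2 Wald test these counts were 12 and 10, beside 2354 and 2696 of all 19371 genes. The median log2 fold change of the 64 was −0.22 beside −0.04 for all genes tested. After the correction for length and GC content it changed sign, to 0.23 beside 0.05. With that correction, 11 genes were called higher in the embryo and 5 higher in the adult (1687 and 2368 of all 19371 genes). Most genes downstream of the receptors were not called, as was the case for most of all genes tested. None of the 11 receptor substrates and adaptors was called, beside 11.3% of all genes called higher in the embryo and 14.6% in the adult. On adjusted p alone, *Shc1* (1.15) and *Sh2b2* (1.62) were higher in the embryo (24.0% of all genes) and *Irs2* (−1.88) and *Socs2* (−1.94) higher in the adult (27.4% of all genes), and the other 7 did not pass. *Irs4*, an insulin receptor substrate with a narrow tissue range, was high at both stages, with a median of 156 CPM in the embryos, against 164 and 159 CPM in the adults.

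In the PI3K, AKT, mTOR and FOXO branch, 13 of 22 genes were higher in the adult on adjusted p (27.4% of all genes), 3 were higher in the embryo (24.0% of all genes) and 6 did not pass. Among the genes called at the 4-fold threshold were *Rictor* (−2.73) and *Pik3r1* (−2.17) in the adult direction and *Eif4ebp1*, a repressor of translation under mTOR control, in the embryo direction (2.98, edgeR adjusted p = 3.21e-05). *Akt1* was higher in the embryo (1.80, adjusted p = 3.01e-04). The direction of this list depended on the correction for length and GC content, after which 3 genes were higher in the adult and 6 in the embryo on adjusted p (4574 and 4826 of all 19371 genes), and none was called in the adult direction. *Rictor* was then at −0.77 and *Pik3r1* at −0.70.

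Outside the cell, the other binding proteins and the proteases that cut them showed some of the widest gaps. *Igfbp4* was called higher in the embryo, with 277 to 771 CPM against 56.1 and 45.3 CPM in the adults (log2 fold change 3.03, standard error 0.46, edgeR adjusted p = 1.21e-04). *Igfbpl1* was also called higher in the embryo (adjusted p = 6.43e-05), with 2.27 to 10.5 CPM in the embryos and 2 and 1 read pairs in the adults. *Igfbp1*, *Igfbp6* and *Igfbp7* did not pass, and *Igfals* had too few counts to be tested. After the correction for length and GC content, *Igfbp1*, *Igfbp6* and *Igfbp7* were all higher in the adult on adjusted p (4574 of all 19371 genes). *Pappa2*, a metalloprotease that releases IGF from binding proteins, had no counted pair in 4 of the 7 embryos and at most 0.642 CPM in the others, against 62.9 and 110.4 CPM in the adults (adjusted p = 7.91e-07). Its relative *Pappa* was called in the same direction at a much lower level, up to 0.495 CPM in the embryos against 1.92 and 1.43 CPM in the adults, and that call was lost after the correction for length and GC content (adjusted p = 0.32). *Stc1*, an inhibitor of these proteases, was called higher in the embryo (2.35, adjusted p = 0.00125), and *Stc2* and *Htra1* did not pass. Of the remaining ligands and receptors of the family, *Insrr* was called higher in the embryo at 0.772 to 3.92 CPM (adjusted p = 0.0174), and *Ins1* and *Ins2* had too few counts to be tested.

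The regulators of *Igf2* and *H19* held the largest embryo differences of all these lists. *Igf2bp1*, which encodes a fetal RNA-binding protein of IGF2 mRNA, had 38.9 to 88.3 CPM in the embryos and 2 read pairs in each adult (edgeR adjusted p = 1.05e-07). *Igf2bp3* had 49.5 to 90.2 CPM against 0.388 and 0.450 CPM (log2 fold change 7.33, adjusted p = 8.79e-08), and *Igf2bp2*, the paralogue known to persist in adult tissues, 24.0 to 75.4 CPM against 6.98 and 7.98 CPM (2.88, adjusted p = 1.07e-04). *Plagl1*, itself imprinted and known as an activator at the *Igf2* and *H19* locus, went the other way, with 52.8 to 138 CPM in the embryos, against 306 and 394 CPM in the adults (−1.997, adjusted p = 8.03e-05), short of the 4-fold threshold, which it passed with the DESeq2 Wald test (−2.03). *Ctcf*, whose product insulates *Igf2* from shared enhancers on the maternal allele, did not pass (−0.52, adjusted p = 0.115).

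Among the 11 genes beside the imprinted members, 10 were tested, 3 were called higher in the embryo (*Igf2os*, *Slc22a3* and *Mrpl23*), beside 11.3% of all genes, and none higher in the adult, beside 14.6%. Beside *Grb10*, *Ddc* (1.43) and *Fignl1* (1.39) were higher in the embryo and *Cobl* (−1.97) higher in the adult on adjusted p, and *Ikzf1* did not pass. *Airn*, the paternally expressed RNA that silences *Igf2r* in cis, was at 5.93 to 11.9 CPM in the embryos, against 4.87 and 5.40 CPM in the adults. Every embryo thus lay above both adults (26.2% of all genes), unlike for *Igf2r*, but *Airn* did not pass the test (0.80, edgeR adjusted p = 0.0871). In the growth hormone axis, *Gh* rose from at most 1.90 CPM in an embryo to 53470 and 63848 CPM in the adults (adjusted p = 2.00e-08), and *Ghrhr*, with no counted pair in 6 of the 7 embryos, had 92.1 and 111 CPM in the adults. *Stat5a* (−2.75) was also called higher in the adult, *Stat5b* (−1.88) was higher on adjusted p, and *Ghr* did not pass, with a median of 16.1 CPM in the embryos, against 13.1 and 16.4 CPM in the adults, but passed the test as higher in the embryo after the correction for length and GC content.

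Markers of other cells in or around the gland were compared in the same way, and the counts called stand beside 11.3% of all genes called higher in the embryo and 14.6% in the adult. The 8 mesenchyme markers were detected in all 9 libraries, led by *Col3a1* in the embryos and *Col1a2* in the adults, and summed to 679 to 2370 CPM in the embryos, against 754 and 505 CPM in the adults. Of these 8, 5 were called higher in the embryo and 1 higher in the adult, while the sums overlapped, embryo 3 lying below adult 1. Of the 4 cartilage markers, led by *Col2a1*, 3 were called higher in the embryo (11.3% of all genes), with sums of 161 to 374 CPM against 15.0 and 8.83 CPM. *Acan* was at 0 in embryo 1, and *Matn1*, which was not tested, was at 0 in embryos 3 and 4 and in both adults. The 6 endothelial markers were all detected in every library and summed to 156 to 518 CPM in the embryos, against 170.4 and 109 CPM in the adults. Of these, 1 was called higher in the embryo and none in the adult, a share near that of all genes, and 4 were higher in the embryo on adjusted p (24.0% of all genes). Sums of the 5 macrophage markers were 94.5 to 245 CPM in the embryos and 83.5 and 131 CPM in the adults. Of these, 1 was called higher in the adult (14.6% of all genes) and 3 were not changed. *C1qb* was higher in the embryo on edgeR adjusted p (0.0350, beside 24.0% of all genes). After the correction for length and GC content, none of the 5 was called and none was higher in the embryo on adjusted p. The adult call among the mesenchyme markers was also lost then. Of the 5 hypothalamic and posterior lobe markers, 3 were called higher in the embryo (11.3% of all genes), *Rax* (4.83), *Nkx2-1* (4.04) and *Sox1* (3.89), and *Elavl3* and *Tubb3* did not pass. Their sums, with *Tubb3* as a large part, were 95.7 to 364 CPM and 88.1 and 54.6 CPM, and both lists were detected in full in every library. The part of these cells in the differences of the 10 genes was not tested.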

How the data were processed

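RNA from 7 Rathke's pouches and 2 adult pituitaries was sequenced as 75 bp read pairs from poly(A) RNA. The authors trimmed the reads with Trimmomatic 0.39, mapped them to mm10 with STAR 2.7.5b and deposited, for each gene (Ensembl 96) and library, the unstranded count of read pairs and the count on either strand, of which the count on the gene's strand was used. Counts were scaled with TMM and tested with edgeR 4.0.16 in R 4.3.3 (quasi-likelihood test, mean count 5 or more, Benjamini-Hochberg), embryo against adult. The standard error is the log2 fold change over the root of the F statistic. Exon overlap and length came from GENCODE M21. The floor of 3 counts corresponded to 0.0962 to 0.220 CPM in the embryos and 0.0727 and 0.0843 CPM in the adults, and the common dispersion was 0.190. Named genes were all 10 members and the genes of the fixed lists, and *Gm49394*, chosen after its values were seen. The members and lists were chosen with earlier results of these data known. Shares were compared with an exact permutation test of the 36 assignments of 7 against 2 libraries (scipy 1.17.1, pandas 2.3.3). Alternatives tried were DESeq2 1.42.0 and its size factors, library size alone, other filters, the unstranded count, a spline correction (4 degrees of freedom) for length and GC, other thresholds on fold change (2, none, and a test against 4), other exon lengths, leaving out libraries and a replicate block. No library was left out of the main analysis.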

Additional observations from a re-analysis of the deposited data

Results flagged for a closer look

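In 3 of the 26 groups of 7 embryos looked at, 1 embryo lay far from the others, judged by its gap to the nearest embryo relative to the range of all 7, and chance sets apart about 1 in 20 groups. *Igf1* had 51.4229 CPM in embryo 1, against 7.80 to 24.1 CPM in the other 6 embryos. *Igf2* had 20.748 CPM in embryo 6, against 44.2 to 58.3 CPM in the other 6. *H19* had 4682.38 CPM in embryo 2, against 2678 to 3542 CPM in the other 6.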

How the results depend on the processing

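The log2 fold changes of *Igf2* (5.79 to 6.41), *H19* (8.18 to 8.90), *Grb10* (3.36 to 4.36) and *Igfbp2* (3.75 to 4.92) kept their direction and their side of the threshold under all 18 alternatives. The genes called higher in the embryo numbered 4155 with a fold change above 2, 4650 with none and 613 when tested against 4 (leave-one-out 1482 to 2362), and those higher in the adult 4805, 5298 and 1131 (leave-one-out 2201 to 2958), as the thresholds are looser or stricter. Of the 10 members, those called higher in the adult were 2 with library size alone, 2 with a replicate block, 2 with a fold change above 2, 2 with no threshold, 0 without both embryos 1 and 4, and 0 when tested against 4 (leave-one-out 0 to 2), where *Igfbp5* and *Insr* lie near the 4-fold threshold. It was 0 after the correction for length and GC content, which moved *Igfbp5* to −1.24 and *Insr* to −0.29, and the cause was not tested. *Igf1r* turned to 0.62 after the correction for length and GC content, and *Igf2r* turned to −0.02 without embryo 5, to −0.065 without embryo 7 and to −0.34 with the replicate block (leave-one-out −0.065 to 0.347). The cause was not tested. Of the genes of the pathway lists, 8 were called higher in the adult in the report. Their number was 5 with the correction for length and GC content, beside 2368 of all 19371 genes. It was 10 with the DESeq2 Wald test, beside 2696 of all 19371 genes. After the correction for length and GC content, the difference in share (embryo minus adult) became 48.0 percentage points for *Igf2*, −0.208 for *Igfbp1*, −12.0 for *Igfbp3*, −49.2 for *Igfbp5* and −4.83 for *Igfbp6*, and with the longest transcript as length −7.83 for *Igfbp3*, and the cause was not tested. Leave-one-out values were −0.144 to −0.0376 for *Igfbp1*, −8.59 to −2.62 for *Igfbp3* and −2.08 to 0.212 for *Igfbp6*, which reversed without adult 1. Without both embryos 1 and 4 the difference was −21.2 for *Igf1r* and 35.2 for *Igf2r*. The replicate numbers count different animals of each stage, so no pairing was assumed. The deviations of same-numbered libraries had correlations of 0.0444 and −0.0128. With 2 adults, the deviations of the adults mirror each other, so these correlations cannot decide on pairing. The block left 1 residual degree of freedom. With the block, *Igf1* was at 1.70 and *Igf1r* at −0.92, and the genes called numbered 1796 and 2440. The median log2 fold change of all genes was −0.26 with library size alone and −0.20 with the block, beside −0.04. Where 1 adult was left out, the other was assumed to vary like the embryos. With 2 adults, spread among adults is poorly known, and genes below the floor of 3 counts cannot be told from absent ones.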
